A study of Gallus gallus with 4 samples.

Results

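Chromosome 1 is the longest chromosome of the chicken, and 12319 of the 47621 deposited H3K9me3 domains lay on it, 6394 in cultured primordial germ cells (cPGCs) and 5925 in embryonic stem cells (ESCs). All rows of the domain list placed on chromosome 1 were taken, from both cell types. The ChIP-seq samples were chromatin of chicken cPGCs, the cultured form of the precursors of eggs and sperm, and of ESCs, which come from the early embryo. Each cell type had 1 library immunoprecipitated with an H3K9me3 antibody and 1 input library of chromatin that was not immunoprecipitated. The authors of the study compared the cell types to learn where in the genome germ cells carry more of this mark. Each list stands for 1 immunoprecipitated library and its input, so no value has a replicate error and no test between the cell types was possible. The read depth behind the lists is unknown. Any treatment, the sex and number of the embryos behind the cultures and the name of the cultures are not given in the sources used here. Domain positions hold no marker of cell identity, so the cell type labels were not checked against the data.

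H3K9me3, the trimethylation of lysine 9 on histone H3, is a mark of heterochromatin. It is written by methyltransferases of the SUV39H and SETDB1 families and read by HP1 proteins, which bind the mark and recruit more of the writing enzymes, so that marked chromatin can extend along a chromosome until it meets a border. The mark silences repeated sequences and keeps genes of other cell types off. In chicken nuclei the long macrochromosomes, of which chromosome 1 is one, are poorer in genes than the small microchromosomes.

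A domain here is a run of enriched windows of 300 bp, joined by the authors when close together. Positions refer to the assembly galGal5. Domains of cPGCs covered 51.3% of the 196199700 bp up to the last domain of chromosome 1, and those of ESCs covered 27.1%, which made a difference of 24.2 percentage points. In sequence, 20.3% of the bases lay in domains of both cell types, 31.0% in cPGC domains only, 6.82% in ESC domains only and 41.9% in neither. Thus, more than 4 times as many bases lay in domains of cPGCs only as in domains of ESCs only. This also held on chromosome 2, where these shares were 30.03% and 7.24%, so it was not particular to chromosome 1. Over all autosomes other than chromosome 1 they were 17.48% and 9.10%. The lists hold no signal, so a base outside the domains is not shown to lack the mark. Both lists began and ended at similar positions: the first domain started at position 47701 in cPGCs and 46801 in ESCs, and the last ended at 196199700 and 196197000. The length of the chromosome in the assembly was not used.

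Among the autosomes, chromosome 2 had the pattern most like it. Domains covered 46.0% of chromosome 2 in cPGCs and 23.2% in ESCs, and 36.9% and 22.6% of chromosome 3. The ratio of cPGC to ESC coverage was 1.89 on chromosome 1, 1.98 on chromosome 2, 1.63 on chromosome 3 and 1.12 on the 26 remaining chromosomes with several domains in each cell type. Chromosome 1 held 21.0% of the bases considered and 43.5% of the net difference in domain bases between the cell types. In this net difference, an excess of ESC bases on some chromosomes offsets an excess of cPGC bases on others, which raises the share. Chromosome 2 had a net difference of 34065300 bp over 149522100 bp, and chromosome 1 one of 47408400 bp over 196199700 bp. Coverage of ESCs varied little between these groups of chromosomes, from 20.4% to 27.1%, whereas that of cPGCs varied from 22.9% to 51.3%. No test of these differences was made, as each chromosome is measured once per cell type.

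The chromosome was then cut into 40 consecutive windows of 5 Mb, the last of which is 1199700 bp long. Coverage by cPGC domains ran from 31.9% to 78.5% over the windows, with a median of 51.2%. Coverage by ESC domains ran from 14.1% to 54.2%, with a median of 24.3%. No window had more ESC than cPGC coverage, while 23.6% of the 203 windows of all autosomes did. The lowest ratio of cPGC to ESC coverage in a 5 Mb window was 1.28 on chromosome 2 and 1.05 on chromosome 3. Neither of these chromosomes thus had such a window. In 21 of the 40 windows the coverage of cPGCs was at least 2 times that of ESCs, a rule that 21.7% of the windows of all autosomes met. Windows of chromosome 2 met it too, with a ratio of up to 3.23, above the highest on chromosome 1, 2.96. On chromosome 1, just inside the limit of 2 were the windows from 120 to 125 Mb, with a ratio of 2.03, and from 25 to 30 Mb, with 2.05. Just outside it were those from 55 to 60 Mb and from 175 to 180 Mb, both with 1.84. In windows of 1 Mb, 8 of 196 complete windows had more ESC coverage, and the lowest difference was -7.20 percentage points, in the window that starts at 144 Mb, which ESC domains covered at 32.2%. Windows of 1 Mb were counted on chromosome 1 only. Whether 8 of 196 is few or many among the autosomes is therefore not known.

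**Figure D1:**
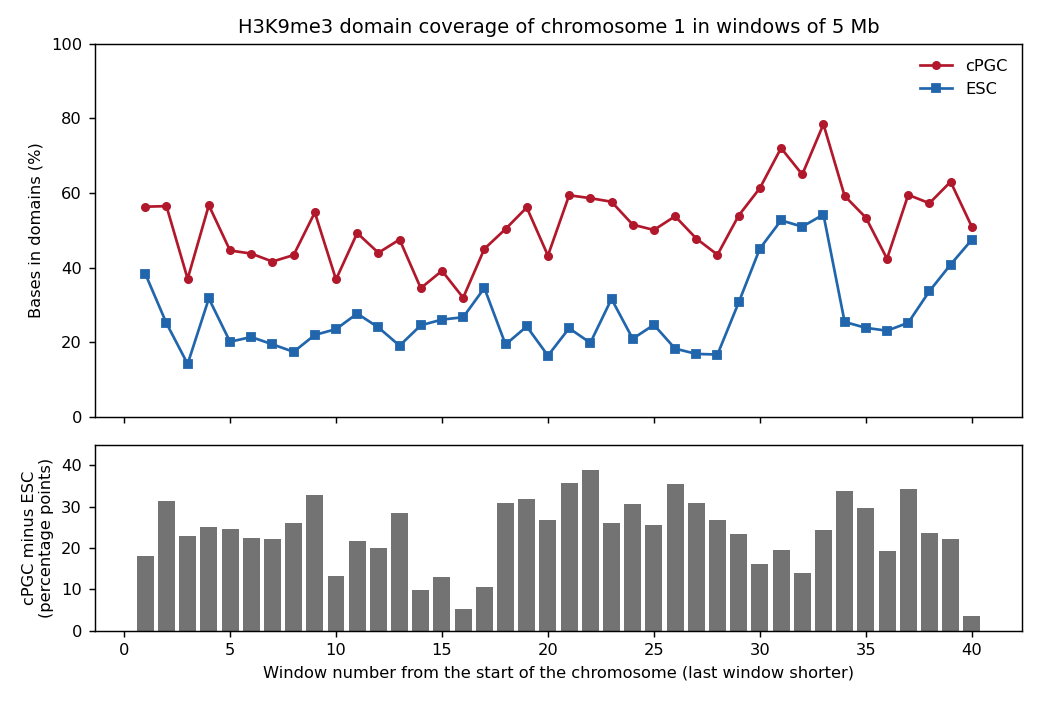
Coverage of chromosome 1 by H3K9me3 domains in 40 consecutive windows of 5 Mb (upper panel, percent of bases, circles for cPGCs and squares for ESCs, 1 library each) and the difference between the cell types (lower panel, percentage points). The cPGC line lies above the ESC line in every window, and both rise in the windows from 145 to 165 Mb, where ESC coverage reaches 54.2%.

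**Figure D2:**
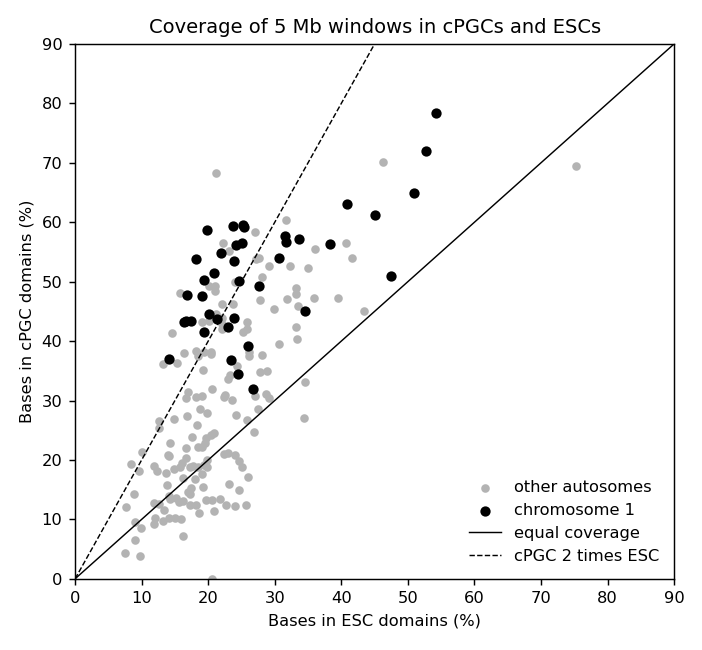
Coverage of 5 Mb windows in ESCs (horizontal axis, percent of bases) and cPGCs (vertical axis) for the 40 windows of chromosome 1 (black) and 163 windows of the other autosomes (grey). All black points lie above the line of equal coverage, and 21 lie on or above the dashed line at a ratio of 2.

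The largest difference was found in the window from 105 to 110 Mb, where 137 cPGC domains covered 58.6% of the bases and 124 ESC domains covered 19.8%. The numbers of domains were similar in this window, but the median cPGC domain measured 15900 bp and the median ESC domain 5250 bp. A domain was assigned to the window of its start. Here 84.7% of the ESC bases also lay in cPGC domains. The window from 100 to 105 Mb came next, with 59.4% in cPGCs and 23.7% in ESCs, again with nearly equal numbers of domains, 169 and 166, and with median widths of 12900 and 5700 bp.

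The third largest difference, from 125 to 130 Mb, was of another kind. Coverage was 53.8% in cPGCs and 18.2% in ESCs, but the domains were more numerous in cPGCs, 203 against 126, and only moderately wider, with medians of 9600 and 6300 bp. In this window 117 of the 203 cPGC domains overlapped no ESC domain, and only 1 was 50 kb wide or more, compared with 14 from 105 to 110 Mb. At a resolution of 1 Mb, the largest difference of the chromosome was in the window that starts at 134 Mb, with 69.5% of the bases covered by 50 cPGC domains and 11.9% by 25 ESC domains.

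The smallest difference was found in the incomplete last window, from 195 Mb to the end, with 51.0% in cPGCs and 47.5% in ESCs. Of the complete windows, those from 75 to 80 Mb (31.9% and 26.7%), from 65 to 70 Mb (34.5% and 24.5%), from 80 to 85 Mb (10.5 percentage points apart, with 34.5% in ESCs) and from 70 to 75 Mb (39.1% and 26.0%) had the smallest differences. These 4 windows adjoin, a feature noticed after their values were seen. Over the 20 Mb from 65 to 85 Mb, cPGC domains covered 37.6% and ESC domains 27.9%, a difference of 9.70 percentage points and a ratio of 1.35. The ESC coverage there was close to that of the whole chromosome, 27.1%, and the cPGC coverage was below that of the whole chromosome, 51.3%. From 65 to 70 Mb only 48.0% of the ESC bases lay in cPGC domains, the lowest share of the 40 windows.

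A different pattern was found from 145 to 165 Mb, the only run of complete windows with ESC coverage of 45% or more, a limit set after the values were seen. The 4 windows there were covered at 45.1% to 54.2% in ESCs, and the other complete windows at 14.1% to 40.8%. Domains covered 50.7% of these 20 Mb in ESCs and 69.2% in cPGCs, a ratio of 1.36. The stretch is 10.2% of the chromosome and held 19.1% of its ESC domain bases and 13.8% of its cPGC domain bases. Of the 29 ESC domains of at least 50 kb on the chromosome, 18 started there, as did 55 of the 292 cPGC domains of that width. In cPGC domains also lay 84.6% of the ESC bases of the stretch. Within it the 1 Mb window that starts at 158 Mb had the highest coverage of the chromosome in both cell types, 89.9% in cPGCs and 86.0% in ESCs. The stretch was uneven at this resolution, and its borders are those of the 5 Mb windows. Of the 14 windows of 1 Mb on the chromosome with ESC coverage of 50% or more, 11 lay in it. The stretch was chosen by its ESC coverage, so this count and that of wide ESC domains follow in part from the choice. The windows of the stretch that start at 146 and 154 Mb had ESC coverage of only 24.0% and 19.1%. Without these 20 Mb, an alternative added after seeing the data, the ratio of cPGC to ESC coverage over the rest of the chromosome was 2.02.

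Over the 40 windows, the coverages of the cell types were correlated, with a Pearson r of 0.66 and a Spearman rho of 0.57. Without the 4 windows from 145 to 165 Mb, r was 0.38 and rho 0.41 over 36 windows. The ratio of cPGC to ESC coverage was lower where ESC coverage was higher, with r of -0.77 and rho of -0.85 over 40 windows, but ESC coverage enters both of these values. Over 39 pairs of neighbouring windows, r was 0.47 and rho 0.43 in cPGCs, and r was 0.62 and rho 0.37 in ESCs. These values describe windows of the same pair of lists, which share libraries, mappability and base composition, and windows are no replicates of a cell type.

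The width of domains differed between the lists more than their number. On chromosome 1 the median domain was 10500 bp wide in cPGCs and 6600 bp in ESCs. The quartiles were 5400 and 19425 bp in the former and 3600 and 11400 bp in the latter. Mean widths were 15735 and 8979 bp, a ratio of 1.75, whereas the ratio of the numbers was 1.08. The median width was larger in cPGCs in all 40 windows, where it ranged from 7800 to 15900 bp, against 5100 to 9300 bp in ESCs. Across all autosomes this held in 88.2% of the windows. Domains were more numerous in cPGCs in 26 of the 40 windows, and in 38.4% of the windows of all autosomes.

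Wide domains were mainly a feature of the cPGC list. There were 1527 domains of at least 20 kb in cPGCs and 460 in ESCs, which held 58.1% and 26.7% of the domain bases. On the other autosomes such domains held 50.1% and 26.0%. By number they were 23.9% of the cPGC and 7.76% of the ESC domains here, and 17.6% and 7.13% on the other autosomes. At 50 kb or more the numbers were 292 and 29, and at 100 kb or more 36 and 2. The former width was reached by 4.57% of the cPGC list here and by 2.86% on the other autosomes. In ESCs these shares were 0.49% and 0.51%, so the ESC share was near the general one. For the latter width they were 0.56% and 0.45% in cPGCs, and 0.034% and 0.027% in ESCs. In 27 of the 40 windows no ESC domain reached 50 kb, whereas a single window, from 25 to 30 Mb, had no cPGC domain of that width. The median window had 0 such ESC domains on chromosome 1 and 0 in the 163 windows of the other autosomes. Windows without one were thus common there too. For cPGC domains the medians were 5.5 and 2. On chromosome 1, the window from 165 to 170 Mb, which adjoins the stretch of high ESC coverage, had the most, 19 in cPGCs and 0 in ESCs. At the other end, 77 cPGC and 203 ESC domains were narrower than 1 kb, and 189 and 363 measured from 1 kb to less than 2 kb.

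**Figure D3:**
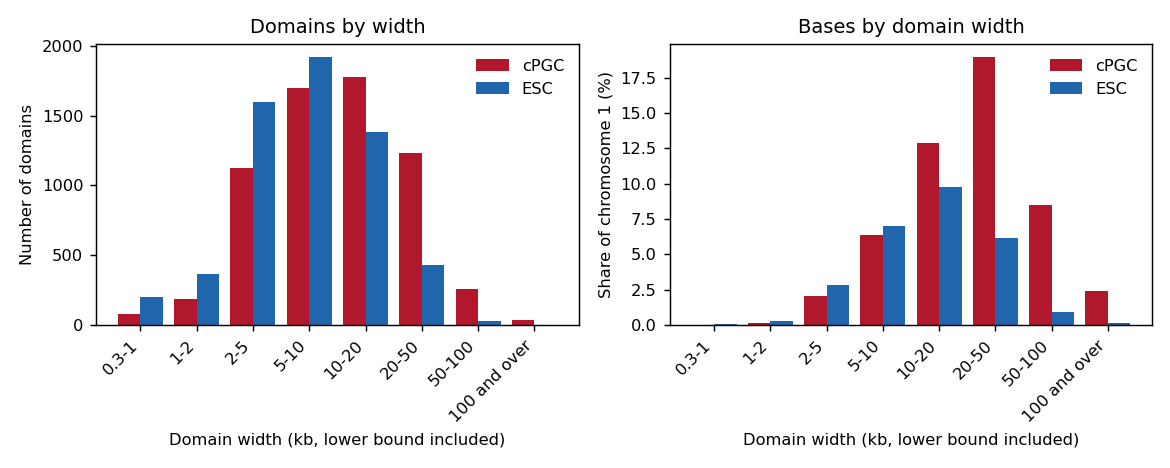
Number of chromosome 1 domains (left) and percent of the chromosome in them (right) by width class in kb, for cPGCs and ESCs with 1 library each. ESC bars are taller in the classes below 10 kb and cPGC bars in the classes from 10 kb up.

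Spacing was tighter in cPGCs. The median gap between neighbouring domains of chromosome 1 was 4200 bp for cPGCs and 11400 bp for ESCs. The quartiles of the gaps were 2100 and 13200 bp for cPGCs, 3300 and 29400 bp for ESCs. The smallest gap possible under the authors' joining of windows was 1800 bp, the size of 18.0% of the cPGC gaps and 8.52% of the ESC gaps. The number and width of cPGC domains therefore depend on the joining distance. With domains 3000 bp or less apart joined, 3656 domains were left in cPGCs, with a median width of 15300 bp, and 4508 in ESCs, with 7800 bp, so that cPGCs then had fewer domains. The ratio of the coverages was 1.89 as before.

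Stretches without a domain were also measured. At least 100 kb without a domain occurred 165 times in cPGCs and 261 times in ESCs, which amounts to 13.0% and 19.5% of the chromosome. In the 261 stretches free of ESC domains, cPGC domains covered 30.9% of the bases. In the 165 stretches free of cPGC domains, ESC domains covered 10.1%. Both values lie below the coverage of the whole chromosome, 51.3% in cPGCs and 27.1% in ESCs. No count of such stretches is given for the other autosomes. Both cell types lacked domains over 70 stretches of at least 100 kb. The longest was 518400 bp (74622901 to 75141300), which lies in the 20 Mb of small differences. The next ones were 269100 bp (30738601 to 31007700) and 234000 bp (106889101 to 107123100), the latter within the window of the largest difference. The longest gap between cPGC domains was 519600 bp on chromosome 1, 524700 bp on chromosome 2 and 535200 bp on chromosome 3. For ESC domains it was 525600, 602700 and 505500 bp. The authors kept uniquely mapped reads only, so coverage of repeated sequence may be underestimated. Unsequenced runs of the assembly were not looked up, so whether a stretch without domains holds such bases was not tested.

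To see how the lists relate to each other, the domains were compared base by base. The shared core, i.e., bases in domains of both cell types, was 39.6% of the cPGC domain bases and 74.9% of the ESC domain bases on chromosome 1. In all 40 windows the share of ESC bases that lay in cPGC domains was higher than the share of all bases that did, by 10.6 to 34.1 percentage points. This excess was not counted in the windows of the other autosomes. Over the whole of the other autosomes, 57.3% of the ESC domain bases lay in cPGC domains, which covered 29.7% of the bases. An excess of this kind was thus not particular to chromosome 1. By number, 3699 cPGC domains (57.9%) met an ESC domain in 1 bp or more, as did 57.0% of cPGC domains over all autosomes. In the other direction, 4673 ESC domains (78.9%) met a cPGC domain, and over all autosomes 65.4% did. The share of cPGC domains was thus near that of all autosomes. That of ESC domains was above it, on a chromosome where cPGC domains covered more of the sequence.

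**Figure D4:**
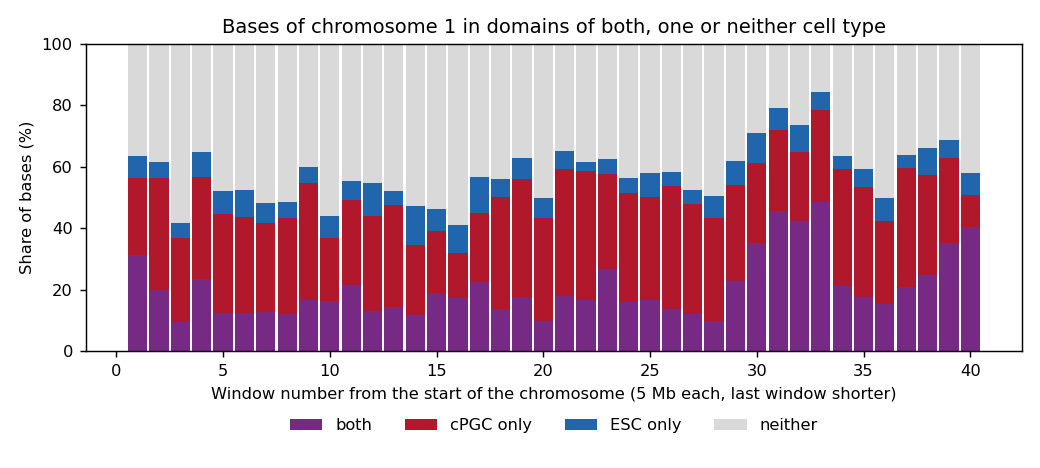
Share of bases (percent) in domains of both cell types, of cPGCs only, of ESCs only and of neither, in 40 consecutive windows of 5 Mb of chromosome 1. The share in both is highest from 160 to 165 Mb, at 48.4%, and the share in neither is lowest there, at 15.7%.

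The remainder of the overlapping domains, or expansion, held 34.8% of the cPGC bases and 12.5% of the ESC bases. Expansion held 32.2% and 15.5% on the other autosomes, and 36.5% and 14.8% on chromosome 2, so the cPGC share was near the general one. Domains without any overlap held 25.6% of the cPGC bases (2695 domains) and 12.6% of the ESC bases (1252 domains). On the other autosomes these shares were 26.6% and 27.2%, so that of cPGCs was near the general share. On chromosome 2 they were 28.7% and 16.4%, with a shared core of 34.7% of the cPGC bases and 68.8% of the ESC bases. Chromosomes 4 to 33 differed mainly on the ESC side, with a shared core of 46.4% of the cPGC bases and 52.1% of the ESC bases. Domains without overlap were narrower than the others in both lists, with medians of 7200 against 14100 bp in cPGCs and 4200 against 7500 bp in ESCs. A narrow domain offers fewer bases in which to meet another. When at least 50% of a domain had to be overlapped, 34.2% (cPGCs) and 71.9% (ESCs) counted as shared.

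ESC domains of chromosome 1 often lay inside cPGC domains. Of all ESC domains, 2702 (45.6%) lay with their whole length in cPGC domains, while 608 cPGC domains (9.51%) lay wholly in ESC domains. Of the 4673 ESC domains with an overlap, 3830 (82.0%) were narrower than the cPGC domain with which they shared most bases, and over all 4673 the cPGC domain was wider by a median factor of 2.85. These counts were made on chromosome 1 only, so they are not shown to be particular to it. Domains of cPGCs covered 51.3% of it and were the wider ones, and choosing the partner by shared bases favours wide domains. Conversely, 1044 cPGC domains (16.3%) ran over at least 2 ESC domains and 68 (1.06%) over at least 5. Over all autosomes 14.1% and 0.77% of the cPGC domains did. The median width was 91350 bp for those over at least 5 and 10500 bp for those over a single ESC domain.

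The widest cPGC domain of the chromosome spanned 258600 bp (112476001 to 112734600) and also overlapped the most ESC domains, 13. These ESC domains were 3900 to 26100 bp wide and together filled 56.7% of it. The next widest cPGC domains were 204900 bp (2379901 to 2584800), with 9 ESC domains in 74.2% of its bases, and 201900 bp (169496701 to 169698600), with 12 ESC domains in 51.3%. In all of these, a single cPGC domain ran over a series of separate ESC domains.

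In ESCs the widest domain, 202800 bp from 158262001 to 158464800, lay over 4 cPGC domains of 18000 to 80100 bp that filled 97.2% of it. They left so little uncovered that all gaps between them were close to the smallest possible, 1800 bp, and below 3000 bp. The split into several cPGC domains there thus depends on the joining distance. By contrast, ESC domains filled only 51.3% to 74.2% of the widest cPGC domains named above. The second ESC domain by width, 105300 bp (83263201 to 83368500), overlapped 4 cPGC domains that filled 64.1%. The third, 99900 bp (149939401 to 150039300), lay almost entirely in a cPGC domain of 128400 bp. The first and the third lie in the stretch from 145 to 165 Mb, and the second in the 20 Mb of small differences.

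Domains without overlap reached 10 kb or more 918 times among cPGC domains (14.4% of them) and 148 times among ESC domains (2.5%). Over all autosomes the shares were 12.2% and 5.04%. The 3 widest in cPGCs spanned 87600 bp (106335901 to 106423500), 71400 bp (108727501 to 108798900) and 68700 bp (186306601 to 186375300), and the first and second lie in the window of the largest difference. In ESCs they spanned 35100 bp (81667801 to 81702900), 34200 bp (89299501 to 89333700) and 30300 bp (15829801 to 15860100).

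Gene positions on galGal5 were taken from the first 1999 genes of the study's locus table, where a locus is the gene body together with its promoter. Only 21 of these loci lie on chromosome 1, of which 18 have a gene symbol, and most are near its right end, so they are no sample of the chromosome. Exons, introns and strand were not available for them. Domains touched 13 loci in cPGCs and 12 in ESCs, 11 of them in both, and 7 loci had none. These are 61.9% and 57.1% of the 21 loci, while over all 1999 loci cPGC domains touched 28.9% and ESC domains 37.8%. Coverage was higher in cPGCs at 9 loci and higher in ESCs at 3. Over all 21 loci, 38.6% of the bases lay in cPGC domains and 26.0% in ESC domains.

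Of the 21 loci, 14 lie in a stretch of 1518 kb from *INTS4* to *FAM160A2*, where cPGC domains covered 55.7% of the bases, 10.7 percentage points more than ESC domains, and genes under domains had neighbours without any. *WNT11*, a secreted Wnt ligand with roles in gastrulation movements, lay in domains over 97.5% of its length in cPGCs and 79.6% in ESCs. A single cPGC domain of 134400 bp (193938901 to 194073300) lay over it, and 3 ESC domains of 11400, 2400 and 46200 bp, the first of which had the same left border. Beyond the locus, a further ESC domain of 67200 bp lay within the same cPGC domain. All gaps between these ESC domains were 3000 bp or less, so the split into several ESC domains there depends on the joining distance. *TSKU*, a secreted leucine-rich proteoglycan that modulates signalling between cells in the embryo, was covered at 92.3% and 82.5%, by 1 domain in each cell type (38100 and 31200 bp). *GDPD4*, a member of the glycerophosphodiester phosphodiesterase family, was covered at 83.6% and 73.1%. *NUMA1*, which organises the poles of the mitotic spindle, was covered at 71.6% and 64.4% by domains of 9300 and 8400 bp.

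Other genes of the stretch had no domain in either list. *INTS4*, a subunit of the Integrator complex that processes small nuclear RNAs, the kinase gene *PAK1*, an effector of Rac and Cdc42, the repressor gene *EMSY*, *THAP12* and *FAM160A2* had 0% coverage in both cell types. The nearest domain to *INTS4* lay 5403 bp away in cPGCs and 2403 bp away in ESCs, and the nearest to *THAP12* 3198 and 3798 bp away. At *FAM160A2* a cPGC domain ended 995 bp from the locus. Both *EMSY* and *THAP12* sat in a gap between wide cPGC domains on either side, 35100 and 62100 bp. *ACER3*, an alkaline ceramidase, was touched at 8.91% in cPGCs and 9.33% in ESCs.

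**Figure D5:**
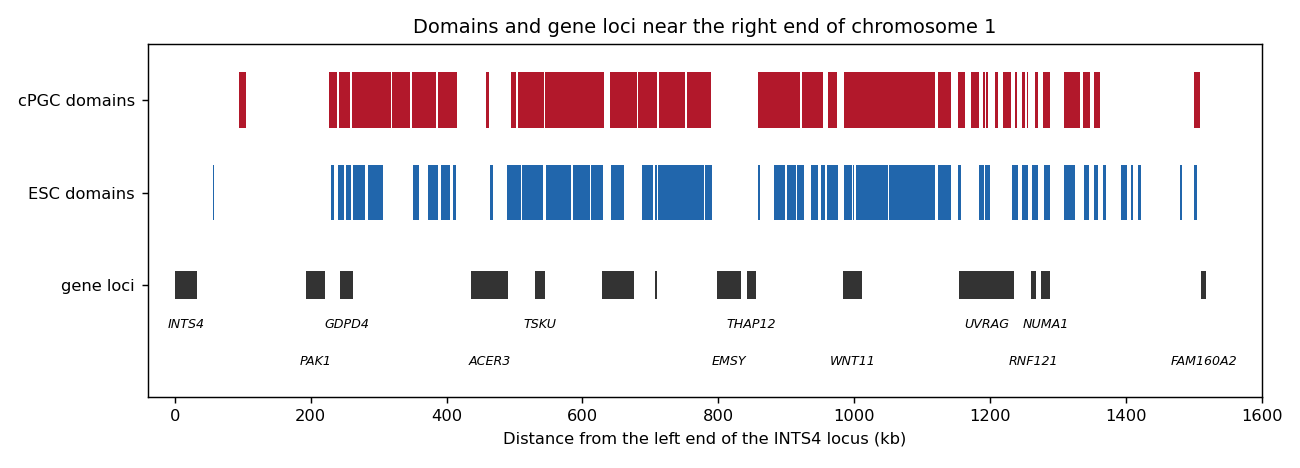
Domains of cPGCs (top) and ESCs (middle) and the gene loci held here (bottom) over 1518 kb near the right end of chromosome 1, by distance in kb from the left end of the *INTS4* locus; loci without a symbol are drawn unnamed. *WNT11* and *TSKU* lie under domains in both cell types, and *INTS4*, *PAK1*, *EMSY*, *THAP12* and *FAM160A2* lie outside them.

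Other loci differed between the lists. *UVRAG*, which acts in autophagy and endosome traffic, was covered at 52.1% by 6 domains in cPGCs and at 24.1% by 4 domains in ESCs. Its neighbour *RNF121*, a ubiquitin ligase gene, was covered more in ESCs, at 92.2% by a domain of 9000 bp, than in cPGCs, at 34.8% by a domain of 4800 bp with the same right border (194224500). *HIKESHI*, whose product carries heat-shock proteins into the nucleus, was covered at 54.2% by a cPGC domain of 5100 bp (190563901 to 190569000) and had no ESC domain within 10331 bp. At *AKR1B1L*, an aldo-keto reductase gene, 4 cPGC domains of 1800 to 6900 bp covered 38.0%, and 1 ESC domain of 2400 bp covered 7.48%.

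*PANX2*, a pannexin channel gene, had the largest difference towards ESCs of the 21 loci. An ESC domain of 5400 bp (20174401 to 20179800) covered 79.7% of it, and the nearest cPGC domain lay 70866 bp away. *LGALS2*, a galectin that binds sugars on the cell surface, was covered at 100% in both cell types, by a cPGC domain of 87900 bp (51243001 to 51330900) and an ESC domain of 9300 bp (51249301 to 51258600). Equal coverage of this short locus thus went with domains that differed in width. Of the remaining loci with a symbol, *DHTKD1*, a mitochondrial dehydrogenase gene, was covered at 15.9% in cPGCs only, and *MEIG1*, needed for sperm formation in the mouse, had no domain in either list.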

How the data were processed

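The authors aligned paired reads to galGal5 with Bowtie 2, retained uniquely mapped proper pairs, compared immunoprecipitated with input reads in MACS2 and SICER (windows of 300 bp), and deposited the start and end of each retained domain on the main autosome scaffolds, without counts, scores or signal. Starts and ends in the file count from 0 and were printed from 1. Python 3.11.15, numpy 2.4.6, pandas 2.3.3, scipy 1.17.1 and matplotlib 3.10.9 were used. Coverage is the percent of bases in domains, counted from the chromosome's first base to the end of its last domain. Classes of bases (shared core, expansion, without overlap) follow the study's definitions. The 203 windows of all autosomes include the shorter ones at chromosome ends. Chromosome 30, with 1 domain in all, was left out of the comparison of chromosomes but is among these windows. No test was made with 1 list per cell type, and no interval from read counts can be given. No sequence of galGal5 was used, so no domain sequence is printed. Of the 18 gene symbols, 15 were found in the RefSeq table of GRCg7b, all on chromosome 1.

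The text names the 3 windows with the largest and smallest difference, the 3 widest domains and 3 widest without overlap per cell type, the cPGC domain over the most ESC domains, the 3 longest stretches without domains, and genes covered at 75% or more in a cell type or differing by 25 points or more. Other genes with a symbol are given more briefly, and loci without one are counted only. Windows, lists and rules were chosen with earlier results of these data known. In the checks of processing, a count was taken as unchanged within 1.5 times, and a share, median, ratio or difference within a 95% interval computed as if windows of 300 bp (for bases) or domains were independent. Neighbouring windows are not, so these intervals are too narrow and serve only as a yardstick. The scripts were first tested on simulated domains with known answers, and 100 of 100 checks passed.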

Additional observations from a re-analysis of the deposited data

How the results depend on the processing

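Coverage of chromosome 1 stayed higher in cPGCs under every alternative run, and no window of 5 Mb had more ESC coverage under any. Of 68 alternative values of 19 results, 30 were unchanged and 38 moved. The largest and smallest window differences did not change sign. The other results are counts, shares, widths, gaps and ratios, which cannot change sign. The order of the domain numbers turned when domains were joined. With domains 3000 bp or less apart joined, coverage was 54.3% in cPGCs and 28.7% in ESCs, 3656 cPGC and 4508 ESC domains were left (6394 and 5925 before), median widths were 15300 and 7800 bp, median gaps 10800 and 18000 bp, the shared core 41.2% and 77.9% of the bases, 64.2% of the cPGC domains were overlapped, and the largest window difference was 40.4 points. With only domains of at least 3000 bp, coverage was 50.8% and 26.2% (ratio 1.94), median widths 11400 and 7800 bp, median gaps 4800 and 13200 bp, the shared core 38.6% of the cPGC bases, and 55.0% of the cPGC and 81.1% of the ESC domains were overlapped. At 5000 bp, coverage was 49.1% and 24.0% (ratio 2.05), 3761 ESC domains were left, median widths were 13500 and 9900 bp, median gaps 6300 and 17100 bp, the shared core 36.3% and 74.4%, the overlapped domains 51.4% and 81.3%, and the largest window difference 40.7 points. An overlap of at least 50% gave 34.2% and 71.9%. Moving the window borders by 2.5 Mb gave a largest difference of 40.5 points and 18 windows at a ratio of 2 or more, and leaving out 145 to 165 Mb a coverage ratio of 2.02. In windows of 1 Mb, 4.08% of the chromosome had more ESC coverage, and in windows of 2 Mb 2.04%. The other autosomes were not cut into windows of these sizes, so these shares have no counterpart there. No paired analysis was possible because each cell type has 1 list. Read depth is unknown, so its part in the number and width of domains was not tested.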
